A study of Macaca fascicularis with 16 samples.

Results

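The question of this comparison was what medroxyprogesterone acetate (MPA), a synthetic progestin, adds to the mammary transcriptome when it is given with an unchanged dose of conjugated equine estrogens (CEE), the estrogen mixture used in hormone replacement therapy. The members were chosen by label: the 4 arrays of animals that received CEE with MPA and the 4 arrays of animals that received CEE alone, 8 of the 16 arrays of the series, with every probe set that read above 60.2, the table's median signal, on 4 or more of the 16. This left 28704 of 52766 probe sets other than Affymetrix controls, and they held 10452 named genes. All animals were ovariectomized post-menopausal female cynomolgus macaques, so none had a functioning ovary as a source of estrogen or progesterone. CEE was given at 0.042 mg/kg in both groups, MPA at 0.167 mg/kg in one of them, and the 4 control animals, whose levels are given beside the results, were untreated. The remaining 4 animals received tibolone, a synthetic steroid, at 0.2 mg/kg, and their arrays entered the signal filter and the shared estimate of the spread but no comparison. Neither the length of treatment nor the animals' ages are given by the labels, and MPA without CEE was not analysed here. Each animal gave 1 array of whole mammary tissue, hybridized to an array designed for the rhesus macaque, so epithelium, connective tissue, vessels and fat were measured together.

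Estrogens act through the estrogen receptor ESR1, a ligand-activated transcription factor of the luminal mammary epithelium. One of its targets is the gene of the progesterone receptor, PGR, so that estrogen makes the tissue able to respond to a progestin. Progestins bound to PGR can act in the same cell and can also signal to neighbouring cells through secreted factors such as RANKL (TNFSF11), WNT4 and amphiregulin (AREG). MPA also binds the androgen receptor and the glucocorticoid receptor, which distinguishes it from progesterone.

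The share of probe sets over the table median was 48.6% to 49.8% on the CEE+MPA arrays and 49.2% to 50.1% on the CEE arrays. A measure of RNA quality, the log2 ratio of GAPDH signal at the end of the transcript to that at its start, overlapped between the groups (0.087 to 0.83 and 0.035 to 0.80). The median log2 signal of the tested probe sets did not overlap, at 7.938 to 7.955 with CEE+MPA and 7.961 to 8.001 with CEE (exact two-sided permutation test, p = 0.0286, the smallest that 4 against 4 arrays allow; 0.0857 adjusted over 6 array measures). Spike-in transcripts of the dap type divided the 16 arrays into a set of 6 with low signal and a set of 10 with high signal, which the labels do not name. This division was drawn after seeing the data, and all 4 tibolone arrays lay in the high set. Of each treatment group compared here 2 arrays lay in each set: CEE replicates 1 and 2 with CEE+MPA replicates 1 and 4 in the low set, and CEE replicates 3 and 4 with CEE+MPA replicates 2 and 3 in the high set. On these 8 arrays the log2 GAPDH ratio was 0.035 to 0.198 in the low set and 0.68 to 0.83 in the high set. The sets thus also differed in this measure of RNA quality. Below, the low set and the high set mean this division, and differences within them are given for the 6 probe sets that fell and for some other genes whose values moved between the sets. On the first principal component of the 16 arrays, with 26.2% of the variance, the CEE+MPA arrays lay at 32.8 to 49.5, the CEE arrays at 12.3 to 23.1 and the control arrays at -52.7 to -7.13. The second component, with 10.3%, followed the spike-in sets. CEE+MPA replicate 1 carried more skeletal muscle transcript than the other arrays of both groups, with a list mean of 1.14 against -0.90 to 0.0034.

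With MPA added, 6 probe sets fell and 0 rose of 28704 tested (limma, Benjamini-Hochberg adjusted p under 0.05). The 6 were 0.0209% of the probe sets, and the share that rose was 0%. At an unadjusted p under 0.05, 1513 probe sets were lower (5.27%) and 703 higher (2.45%), and with each array centred on its median this split was 1173 lower and 1038 higher. Counted by gene, with the brightest tested probe set standing for each, 3 of 10452 fell (IGFBP1, GREB1 and BCAS1, 0.0287%) and 0 rose. The other 3 probe sets that fell were 1 of several probe sets of TMPRSS3, 1 of several of ERICH3, and 1 without a gene name. These were singled out after their values had been seen. All 6 were also higher with CEE than in controls, as the signals below show. Both comparisons use the same CEE arrays, and picking probe sets for a high level on these arrays favours such a pattern. It is therefore not counted as a separate result.

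IGFBP1 encodes a secreted binding protein that holds insulin-like growth factors away from their receptor. Its signals were 689, 530.2, 2342 and 516 on the CEE arrays and 6.47, 14.2, 12.8 and 30.2 on the CEE+MPA arrays. Every CEE+MPA signal lay below every CEE signal, and the lowest CEE signal was 17.1 times the highest CEE+MPA signal. The log2 fold change was -4.76 ± 0.43 (SE, n = 4 arrays in each group; limma, adjusted p = 0.000212). All 4 CEE+MPA signals lay under the filter level of 60.2, so the size depends on the offset: it was -5.78 with an offset of 1 and -3.48 with 64 in place of 16. It was -4.27 in the low spike-in set and -5.25 in the high one. Control arrays read 105, 30.6, 26.4 and 69.5, and the difference of CEE+MPA from control was -1.12 (adjusted p = 0.122).

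GREB1, a coactivator of the estrogen receptor and one of its best known targets, read 431, 514, 398 and 234 with CEE and 69.9, 97.7, 57.8 and 43.1 with CEE+MPA. The groups did not overlap, and all 4 CEE+MPA signals stayed above the control signals of 41.4, 21.7, 23.3 and 30.1. GREB1 fell, its log2 fold change being -2.29 ± 0.24 (limma, adjusted p = 0.000645), a 5.88-fold lower mean, with -2.77 and -1.81 within the low and the high spike-in set. CEE+MPA against control was 0.86 (adjusted p = 0.0466), so of the 6 probe sets this was the 1 that still passed the threshold above control, as 561 of 28704 (1.95%) did, with 1258 (4.38%) below it.

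BCAS1, which lies in a region amplified in some breast cancers, read 146, 199.5, 114 and 112 with CEE and 44.9, 23.9, 15.96 and 26.9 with CEE+MPA, again without overlap. Its log2 fold change was -1.86 ± 0.22 (limma, adjusted p = 0.00269), with -1.87 and -1.85 within the spike-in sets. Its control signals, 30.5, 51.8, 43.6 and 56.6, overlapped those with CEE+MPA. BCAS1 met the signal filter only through the CEE arrays, so its high level there was partly fixed in advance.

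A probe set annotated to TMPRSS3, which encodes a transmembrane serine protease, was high in the CEE group alone among the 3 groups shown. It read 2699.7, 2054, 3689.8 and 545 with CEE, 8.62, 4.14, 28.6 and 36.2 with CEE+MPA and 12.1, 19.0, 33.9 and 37.6 in controls. CEE+MPA and control overlapped, and both lay under 60.2 on every array. Of the tibolone arrays only replicate 1 (205) was above that level. The probe set thus met the signal filter only through the CEE arrays, which partly fixed this pattern in advance. The log2 fold change was -5.82 ± 0.55 (limma, adjusted p = 0.000212), between -6.90 and -4.54 with offsets of 1 and 64, with -6.05 and -5.59 within the spike-in sets. The other 3 tested TMPRSS3 probe sets did not share this pattern: their log2 fold changes were -0.76 ± 0.56, -0.55 ± 0.43 and 0.73 ± 0.51, each with overlapping groups. In RefSeq's cynomolgus gene table the gene next to TMPRSS3 on chromosome 3 is TFF1, followed by TFF2 and TFF3, which encode trefoil peptides of secretory epithelia. TFF1 was not analysed here, and which transcript the probe set measured was not tested.

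A probe set of ERICH3, a gene with a glutamate-rich product, read 1060.2, 688, 789.8 and 237 with CEE and 62.6, 96.2, 75.1 and 97.5 with CEE+MPA, without overlap. Its log2 fold change was -2.68 ± 0.42 (limma, adjusted p = 0.0429), with -3.20 and -2.16 within the spike-in sets. With the set as a block it no longer passed (adjusted p = 0.0853, or 0.0975 with the division by the largest gap in spike-in signal), and it passed in only 9 of 28 alternative analyses and in 1 of the 8 that left out an array. The other 3 tested ERICH3 probe sets had log2 fold changes of -1.39 ± 0.34, 0.21 ± 0.23 and 0.091 ± 0.25, and 0 of them passed. The unnamed probe set read 92.2, 99.6, 126 and 60.7 with CEE, 18.5, 25.7, 7.90 and 19.5 with CEE+MPA and 16.2, 10.5, 16.8 and 22.8 in controls. This probe set too met the signal filter only through the CEE arrays, which partly fixed its high CEE level in advance. Its log2 fold change was -1.70 ± 0.21 (limma, adjusted p = 0.00342), with -1.68 and -1.73 within the spike-in sets. With offsets of 1 and 64 it was -2.40 and -0.94. In a fit of only the 8 arrays the unnamed probe set did not pass (limma, adjusted p = 0.0503). On all 6 probe sets the lowest CEE signal came from CEE replicate 4, and without that array 13 probe sets passed as lower in place of 6. All 6 were lower in each spike-in set, which the lack of overlap fixed in advance. With 2 arrays against 2 only GREB1 passed in the low set and 0 passed in the high set. In whole tissue, fewer cells that express a gene and less of its RNA per cell cannot be told apart.

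**Figure D1:**
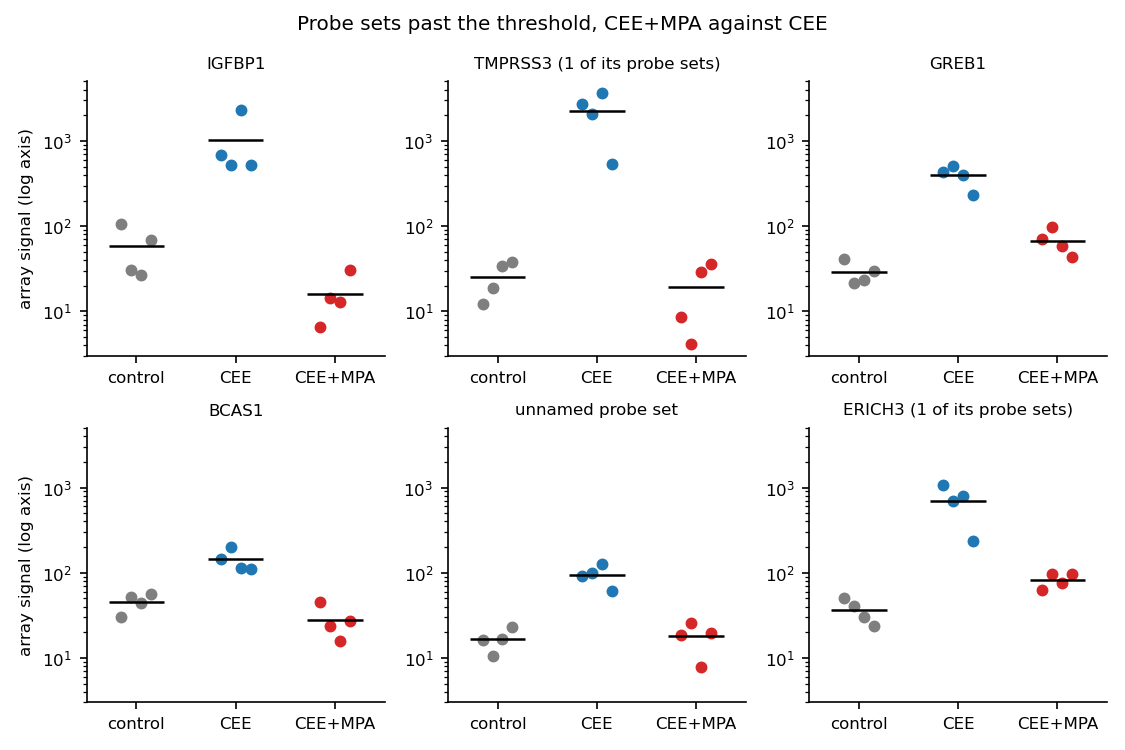
Array signal on a log axis (vertical) of the 6 probe sets that fell with CEE+MPA, by group (horizontal). Points are single arrays, 4 in each group, and bars are group means. In every panel the 4 CEE+MPA points lie below the 4 CEE points, and in the IGFBP1, BCAS1, TMPRSS3 and unnamed panels they overlap the control points or lie below them.

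Just outside the threshold, 9 probe sets had an adjusted p between 0.05 and 0.10 (limma). In all 9 every CEE+MPA signal lay below every CEE signal, as in 3.18% of all genes, but picking by small p favours such a separation. They were singled out after their values were seen. Some were higher with CEE than in controls: an unnamed probe set read 2048, 1365, 1342 and 892 with CEE, 186, 332, 233 and 248 with CEE+MPA and 143, 177, 133 and 164 in controls (log2 fold change -2.39 ± 0.39, limma adjusted p = 0.0526). A probe set annotated to SPATA2, which encodes an adaptor of TNF receptor signalling, read 655, 201, 1613 and 499 with CEE and 26.2, 11.3, 76.3 and 41.6 with CEE+MPA (-3.57 ± 0.59, adjusted p = 0.0526), but the other 2 tested SPATA2 probe sets overlapped, with -0.16 ± 0.17 and -0.14 ± 0.16. Others were not high with CEE. Among these, a RERG probe set, for a Ras-like growth inhibitor regulated by estrogen, read 106, 91.5, 104 and 132 with CEE, 52.7, 24.4, 35.6 and 52.8 with CEE+MPA and 156, 159, 136 and 109 in controls (-1.14 ± 0.20, adjusted p = 0.0915). PON2, a paraoxonase of intracellular membranes, read 448, 393, 400.5 and 565 with CEE and 236, 209, 239 and 225 with CEE+MPA, against 549 to 649 in controls (-0.93 ± 0.17, adjusted p = 0.0975).

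**Figure D2:**
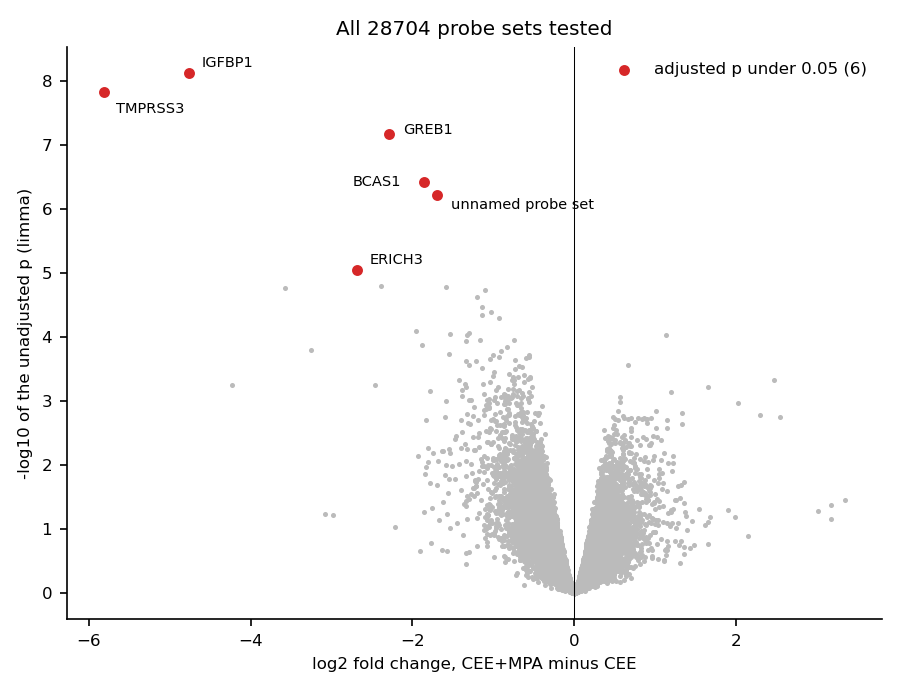
Each point is 1 of the 28704 probe sets tested, with the log2 fold change of CEE+MPA over CEE (horizontal) against -log10 of limma's unadjusted p (vertical). The 6 red points past the adjusted threshold all lie on the lower side, and the probe sets with the smallest p on the higher side stay below them.

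Genes known to be induced by estrogen in breast epithelium were gathered in a list of 40, of which 32 were tested. Of these, 3 fell (IGFBP1, GREB1 and BCAS1) and 0 rose. IGFBP1, BCAS1, RBBP8, ERICH3 and ZNF652 had been put on the list because of earlier results of these data. Without these 5, 1 of 27 fell (GREB1), 19 were below 0, in 6 all CEE+MPA signals lay below all CEE signals, and the median log2 fold change was -0.37. In the whole list 22 of 32 were below 0, the median was -0.40, and in 9 all CEE+MPA signals lay below all CEE signals, beside a median of 0.0040 and a share of 3.18% over all genes tested. The list mean was -0.00021 to 0.47 on the CEE arrays, where CEE replicate 4 was the lowest, and -0.45 to -0.20 on the CEE+MPA arrays. The control arrays lay at -0.17 to -0.072. Without the 5 added genes the list means touched, with -0.122 to 0.44 on the CEE arrays and -0.43 to -0.121 on the CEE+MPA arrays. The median was -0.59 in the low spike-in set and -0.13 in the high one, and it turned to 0.024 in the high set of the division by the largest gap, which holds 1 CEE array.

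PGR, the progesterone receptor and 1 of the receptors that MPA binds, read 152, 98.8, 66.9 and 36.6 with CEE, 11.7, 27.5, 8.75 and 22.6 with CEE+MPA and 15.6, 20.3, 13.7 and 21.3 in controls. The CEE+MPA signals were all below the CEE signals and overlapped the controls, but the CEE signals were far apart. The log2 fold change of -1.55 ± 0.48 did not pass (limma, adjusted p = 0.438), with a 95% interval of -2.57 to -0.53 and -2.09 and -1.01 in the low and the high set.

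TFF3, a trefoil peptide of mucous secretions, read 3062, 581, 1899.6 and 302 with CEE and 62.0, 88.7, 149.7 and 85.0 with CEE+MPA. These did not overlap either, and the difference was -3.25 ± 0.66 (limma, adjusted p = 0.177). IRS1, the adaptor that links insulin and IGF receptors to their kinases, read 401, 284, 559.8 and 254 with CEE and 143, 176, 144 and 166 with CEE+MPA (-1.11 ± 0.27, adjusted p = 0.269). RBBP8, a DNA end-resection factor named because it also differed between CEE and control, was 540.4 to 963 with CEE and 286 to 364 with CEE+MPA (-0.94 ± 0.22, adjusted p = 0.261). All 3 were lower on every CEE+MPA array and did not pass the threshold over all genes. Another estrogen target showed no such separation: CCND1, the cyclin D1 gene, had a log2 fold change of 0.077 ± 0.35 with a 95% interval of -0.66 to 0.81, and its direction turned from -0.34 in the low set to 0.50 in the high set. FKBP4, a steroid receptor co-chaperone, was the list's 1 gene with every CEE+MPA signal above every CEE signal (1958 to 2181 against 1285 to 1807, log2 fold change 0.35 ± 0.15, limma adjusted p = 0.616).

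**Figure D3:**
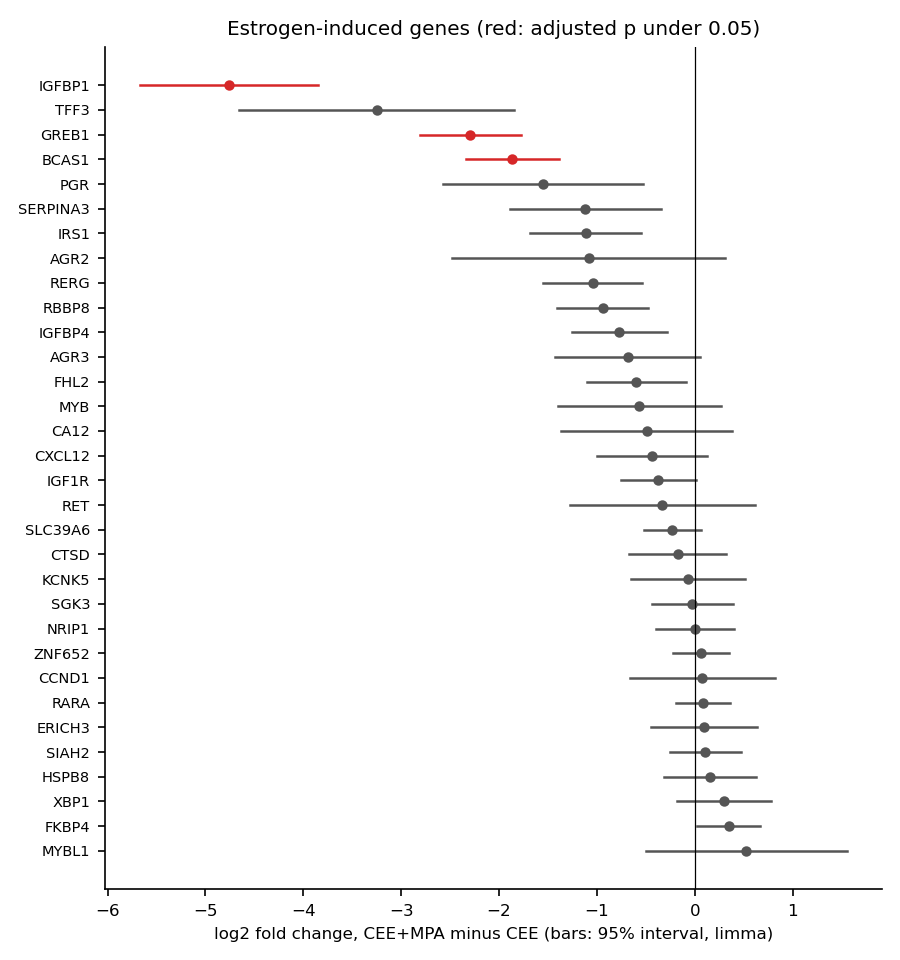
Log2 fold change of CEE+MPA over CEE (horizontal) with its 95% interval from limma for the 32 tested genes of the estrogen-induced list (vertical). The 3 red genes, IGFBP1, GREB1 and BCAS1, passed the adjusted threshold, and 22 of 32 points lie below 0. The ERICH3 row shows another probe set of that gene than the one that fell. The ZNF652 row shows another probe set than the one whose signals are given in the text.

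Some probe sets held with CEE+MPA the level they had with CEE alone. In the same fit 21 probe sets differed between CEE and control, 12 higher (0.0418% of 28704) and 9 lower (0.0314%) with CEE. Both comparisons use the same 4 CEE arrays, so values are set side by side and no overlap is counted as a result. ZNF652, a zinc finger repressor, was measured by a probe set that read 2216, 1806, 2059 and 2163 with CEE, 1564, 2329, 1656 and 1586 with CEE+MPA and 856, 771, 907 and 974 in controls. It was above control in both groups (1.22, limma adjusted p = 0.0357, and 0.996, adjusted p = 0.014), and the difference between the hormone groups was -0.22 ± 0.20 (95% interval -0.66 to 0.21). The other tested ZNF652 probe set, the brighter, did not share this rise. It differed from control by 0.12 with CEE (limma, adjusted p = 0.764) and 0.18 with CEE+MPA (adjusted p = 0.455).

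FST encodes follistatin, which binds and blocks activins. It read 235, 203, 207 and 187 with CEE, 179, 213, 235 and 149 with CEE+MPA and 416, 573, 438 and 386 in controls. The hormone groups differed by -0.11 ± 0.18 (95% interval -0.49 to 0.27), and the direction turned from -0.39 in the low spike-in set to 0.17 in the high one. Both hormone groups were below every control. ACADL, a fatty acid oxidation enzyme, was likewise 23.9 to 42.0, 22.5 to 34.2 and 73.2 to 114, with -0.04 ± 0.19 between the hormone groups (95% interval -0.43 to 0.35). Every ACADL signal of both hormone groups lay under the filter level, where the offset shrinks differences. Whether ACADL held its level between these groups is therefore not settled. HTRA1, a secreted serine protease that cleaves matrix proteins and IGF-binding proteins, was lower than control with CEE (-0.998, limma adjusted p = 0.0161) and with CEE+MPA (-1.52, adjusted p = 0.000342). Its CEE+MPA signals, 1827, 1743, 1882 and 1519.9, were all below the CEE signals, 2459.5, 2660.1, 2874 and 2077, but the difference of -0.52 ± 0.15 did not pass (adjusted p = 0.367).

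CRYAB, the small heat shock protein alpha-B crystallin, was low with CEE (18.2, 27.96, 68.0 and 31.9) against 70.8, 73.3, 65.1 and 81.1 with CEE+MPA and 137, 115, 83.7 and 91.8 in controls. The hormone groups overlapped through CEE replicate 3, and the log2 fold change on adding MPA was 0.83 ± 0.22 (limma, adjusted p = 0.323), with 1.24 in the low set and 0.42 in the high set.

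**Figure D4:**
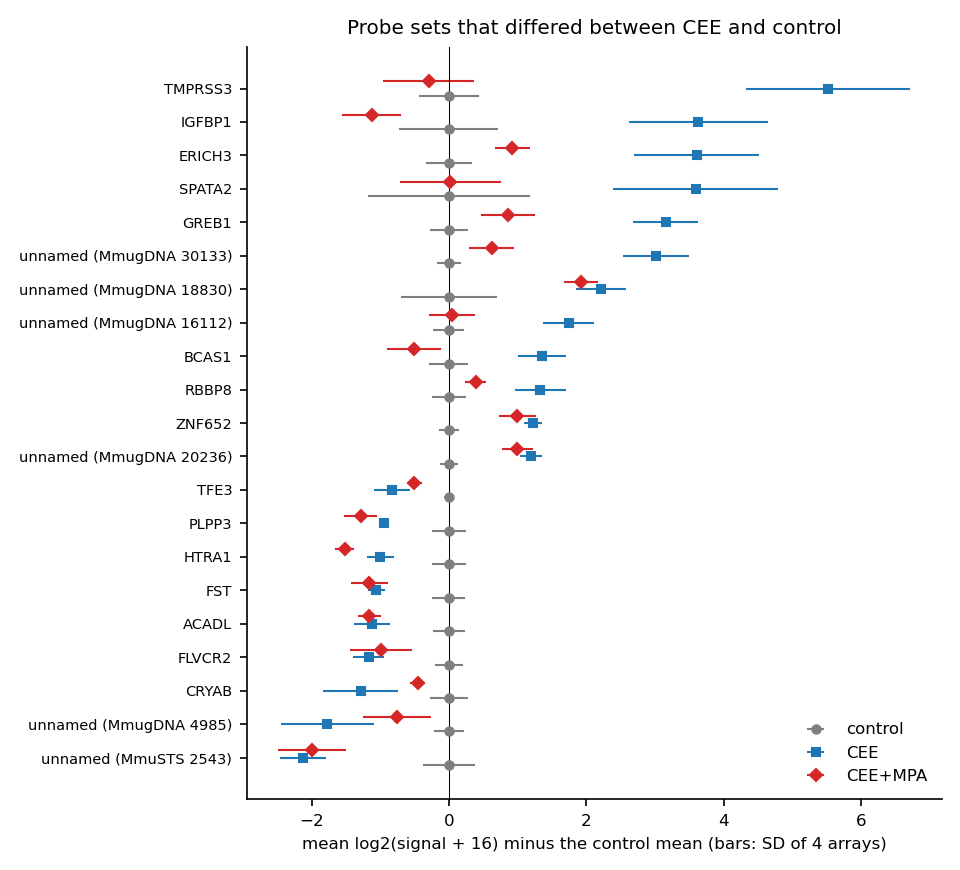
Mean log2(signal + 16) of each group minus the control mean (horizontal), with the SD of 4 arrays, for the 21 probe sets that differed between CEE and control (vertical). At the top CEE lies far to the right of both other groups (TMPRSS3, IGFBP1, SPATA2). For ZNF652, FST, ACADL and FLVCR2 the CEE and CEE+MPA means lie close together and away from control. ACADL on every CEE and CEE+MPA array, and FLVCR2 on every CEE array, lay under the filter level, where the offset shrinks differences. Unnamed rows carry the start of the probe set's name.

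Lists of genes induced by progestins, glucocorticoids and androgens in other settings held no gene that passed. Of 28 progestin-induced genes 0 passed in either direction, 14 lay above 0 and 14 below, and the median log2 fold change was 0.026. Of 19 glucocorticoid-induced genes 0 passed and the median was -0.10, and of 11 androgen-regulated and apocrine genes 0 passed and the median was 0.17. TSC22D3 (GILZ), a shared target of the glucocorticoid and progesterone receptors, read 3431, 2346, 2014 and 3259.8 with CEE and 2694, 1592, 2436 and 3073 with CEE+MPA (-0.18 ± 0.30). ZBTB16 (PLZF), a transcription factor induced through the same receptors, read 364, 539.9, 505 and 659 with CEE and 477, 421, 613 and 395 with CEE+MPA (-0.10 ± 0.34). Both overlapped, and the interval of ZBTB16 ran from -0.82 to 0.61. PER1, the circadian repressor, had -0.49 ± 0.48 with a 95% interval of -1.51 to 0.53. FKBP5, the most used marker of these receptors, was too low to be tested, with at most 43.1 on the 8 arrays.

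None of the following members passed. F3, the tissue factor gene, read 488, 647, 468 and 597 with CEE and 377, 235, 249.8 and 245 with CEE+MPA, without overlap (-0.96 ± 0.26, limma adjusted p = 0.33). BCL6, a transcriptional repressor on the glucocorticoid list, read 5382, 4845, 4694 and 4753 with CEE and 2862, 3655, 2143 and 4548 with CEE+MPA (-0.63 ± 0.23, adjusted p = 0.508). CLDN8, a tight junction gene on the androgen list, had 1020.4 to 3822 and 2558 to 4452, which overlapped (0.77 ± 0.31, adjusted p = 0.562). The glucocorticoid list mean was 0.51 on CEE replicate 4 and at most 0.12 on the other arrays of both groups, and without CEE replicate 4 its median was 0.016.

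The paracrine factors that mediate progestin action in the mammary gland did not differ detectably. WNT4 read 84.9, 179, 177 and 168 with CEE and 138, 184, 259 and 172 with CEE+MPA (0.30 ± 0.45, 95% interval -0.65 to 1.25). AREG, the amphiregulin gene, read 231, 483, 324 and 663 with CEE and 304, 1103, 581 and 179 with CEE+MPA (0.14 ± 0.58, 95% interval -1.09 to 1.36). Both intervals include a difference of 1 on the log2 scale in the higher direction. TNFSF11, which encodes RANKL, was not tested, since its signals reached at most 31.6 on the 8 arrays. RSPO1, a secreted amplifier of Wnt signalling, read 1073, 907, 1140.2 and 1078 with CEE and 956, 3087, 1453 and 270.3 with CEE+MPA, with 182, 207, 169 and 194 in controls. The CEE+MPA animals were spread around the CEE level, and the 95% interval ran from -1.24 to 1.24. The direction turned between the spike-in sets for RSPO1 (-0.93 in the low set and 0.92 in the high set) and for AREG (-0.49 and 0.77).

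Of 36 tested genes of the Wnt, R-spondin and RANKL list 0 passed, 5 were lower at an unadjusted p under 0.05 (4.88% of all genes were), and the median was -0.065. Members with a small p included LGR5, RNF43 and SFRP4. LGR5, a receptor of R-spondins, read 169, 98.0, 355 and 96.9 with CEE, 55.3, 33.8, 22.1 and 27.8 with CEE+MPA and 279.5, 1088, 574 and 218 in controls (-1.80 ± 0.61, limma adjusted p = 0.474). RNF43, the ubiquitin ligase that removes Wnt receptors, read 2599, 2227, 2227 and 2148 with CEE and 1592, 1712, 1842 and 1634 with CEE+MPA (-0.44 ± 0.11, adjusted p = 0.323). SFRP4, a secreted Wnt antagonist of stromal cells, read 5636, 2892, 3062 and 2806 with CEE and 2385, 1159, 1118 and 1496 with CEE+MPA (-1.22 ± 0.38, adjusted p = 0.441), but only 1 of its 4 tested probe sets had this direction. In each of the 3 the groups did not overlap.

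The prolactin and STAT5 axis, which drives alveolar differentiation, held no gene that passed. Of 13 tested genes 9 were above 0, and the median was 0.089. STAT5A read 865, 1146, 1196 and 1199.8 with CEE and 1198, 1031, 1273 and 1375 with CEE+MPA, against 286, 189.8, 436 and 701 in controls. The hormone groups overlapped and differed by 0.15 ± 0.33 (95% interval -0.55 to 0.85), while CEE+MPA was above control by 1.71 (limma, adjusted p = 0.0107). Within the low and the high set STAT5A differed by 0.36 and -0.063. CISH, a feedback inhibitor induced by STAT5, differed by 0.089 ± 0.39 between the hormone groups, with signals of 1490.4 to 3326 and 1347 to 3041, and by 0.34 and -0.16 within the sets. ELF5, the transcription factor of alveolar cells, read 13291, 11956, 11518 and 13276 with CEE and 13369, 14665, 16004 and 14907 with CEE+MPA. Every CEE+MPA signal was the higher, by a log2 fold change of 0.24 ± 0.33 (adjusted p = 0.9). JAK2, the kinase bound to the prolactin receptor, was lower in value (-0.73 ± 0.22, adjusted p = 0.418), and 1 of its 3 probe sets went the other way.

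DLK1, a membrane protein of the Notch ligand family, read 1104, 514, 462 and 186 with CEE, 1201, 1182, 708 and 1467 with CEE+MPA and 197, 28.2, 182 and 157 in controls. The hormone groups overlapped. Adding MPA gave 1.19 ± 0.57 (95% interval -0.023 to 2.41, limma adjusted p = 0.652), and CEE+MPA passed against control (3.06, adjusted p = 0.00948), where CEE alone did not (1.87, adjusted p = 0.233). By gene, CEE+MPA was above control in 2.74% and below it in 4.96% of 10452, and CEE alone in 0.0383% and 0.0191%.

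Milk genes varied widely between animals of the same group. Of 20 tested, 0 passed, 17 lay above 0 and the median was 0.38, which was 0.17 without CEE replicate 4. BTN1A1, which coats milk fat globules, read 1225, 7413, 3023 and 770.2 with CEE and 6678, 5699.7, 4398 and 13471 with CEE+MPA (1.67 ± 0.85, limma adjusted p = 0.662). CEE replicate 4 was its lowest array and CEE+MPA replicate 4 its highest. CSN2, the beta-casein gene, was near the top of the scale on all 8 arrays (11435 to 15458 and 13751 to 15596), with a difference of 0.13 ± 0.14. SLC2A1, a glucose transporter, was the list's 1 gene without overlap in the higher direction (205 to 259 and 268 to 444, 0.53 ± 0.18, adjusted p = 0.475).

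Of 19 tested genes of the IGF axis 1 fell, IGFBP1 (0.0287% of all genes fell), and 14 were below 0, with a median of -0.31. The list mean was -0.02 to 0.32 on the CEE arrays and -0.51 to -0.30 on the CEE+MPA arrays, without overlap. Without IGFBP1 it was -0.12 to 0.22 and -0.45 to -0.17, again without overlap. IGFBP4, another secreted binding protein, read 3993, 4231, 3198 and 1997 with CEE and 2194, 2119, 1914 and 1417 with CEE+MPA (-0.77 ± 0.23, limma adjusted p = 0.402), overlapping through CEE replicate 4, with -1.21 in the low set and -0.33 in the high set.

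In the other growth factor lists 0 genes passed. Of 29 TGF-beta, activin and BMP genes 20 were below 0 (median -0.15). INHBA, the activin A subunit, read 124, 149.5, 106 and 224 with CEE, 91.3, 28.6, 82.2 and 59.0 with CEE+MPA and 415, 297, 328 and 171 in controls (-1.06 ± 0.32, limma adjusted p = 0.404), without overlap between the hormone groups. Of 28 Notch, Hedgehog and FGF genes 22 were below 0 (median -0.20), among them SMO, the Hedgehog signal transducer (244 to 289 and 162 to 214, -0.41 ± 0.14, adjusted p = 0.468). Of 11 EGF family genes 7 were below 0 (median -0.19), while EGF itself read 136, 191, 336 and 263 with CEE and 352, 435, 421 and 399.8 with CEE+MPA, higher on every array (0.82 ± 0.61, adjusted p = 0.787).

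Among steroid receptors and their coregulators 0 of 21 tested genes passed. ESR1 was not tested, with signals of at most 64.1 on its probe set, so its level is not compared here. ESR2 and NR3C1, the second estrogen receptor and the glucocorticoid receptor, differed by -0.045 ± 0.18 and 0.15 ± 0.22. FOXA1, the pioneer factor of ESR1 binding, read 1251, 865, 1120.0 and 448 with CEE and 438, 372, 453 and 606 with CEE+MPA (-0.88 ± 0.43, limma adjusted p = 0.66), and CEE replicate 4 lay within the CEE+MPA range. NR2F1, an orphan nuclear receptor, read 672, 771, 869.5 and 892 with CEE, 515, 577, 373 and 438 with CEE+MPA and 1303, 1164, 1260.3 and 1001 in controls (-0.74 ± 0.17, adjusted p = 0.243), so that the 3 groups did not overlap. Of 9 tested steroid-metabolizing enzymes 0 passed. HSD11B1, which regenerates active glucocorticoid from its inert form, read 55.2, 104, 80.0 and 117 with CEE and 40.9, 42.3, 25.8 and 38.2 with CEE+MPA (-0.97 ± 0.23, adjusted p = 0.268). HSD17B2, which inactivates estradiol and is a progestin target of the endometrium, read 296, 502, 147 and 184 with CEE and 391, 334, 316 and 589 with CEE+MPA, which overlapped (0.61 ± 0.35, adjusted p = 0.706). HSD17B4, an oxidizing enzyme of peroxisomes, was higher on every CEE+MPA array (1807 to 2281 against 1196 to 1696, 0.48 ± 0.16, adjusted p = 0.477).

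Contractile genes of smooth muscle and myoepithelium held no gene that passed. Of 26 tested 22 were below 0, 12 had an unadjusted p under 0.05 in that direction, as did 4.88% of all genes, and in 7 every CEE+MPA signal lay below every CEE signal, as it did in 3.18% of all genes. The median was -0.37, and it stayed between -0.55 and -0.34 in the 28 alternatives. The list mean was -0.042 to -0.0013 on the CEE arrays, -0.77 to -0.23 on the CEE+MPA arrays and 0.068 to 0.48 in controls. MYH11, smooth muscle myosin, read 2521, 2388, 3036 and 2809 with CEE, 1323, 1303, 953 and 728 with CEE+MPA and 4479, 4917, 5331 and 2212 in controls (-1.34 ± 0.28, limma adjusted p = 0.185), and all 4 of its probe sets had this direction. TAGLN, transgelin, read 7561, 7675, 7086 and 6446 with CEE and 6063, 3718, 3119 and 2509 with CEE+MPA (-0.97 ± 0.24, adjusted p = 0.269). SYNPO2 and KCNMB1, an actin-binding protein and a potassium channel subunit of smooth muscle, had -0.77 ± 0.18 and -0.86 ± 0.22.

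Medians of other stromal lists were also below 0. Of 37 fibroblast, proteoglycan and microfibril genes 0 passed and 35 were below 0 (median -0.36, with -0.18 and -0.56 within the low and the high set and -0.084 to -0.56 over the alternatives). The list mean of CEE+MPA replicate 1, -0.12, lay within the CEE range of -0.13 to -0.037, and the other CEE+MPA arrays were at -0.73 to -0.43. FBLN1, fibulin 1 of elastic fibres, read 1281, 851, 1127 and 814 with CEE, 623, 331, 446 and 431 with CEE+MPA and 2496, 2935, 3758 and 1733 in controls (-1.14 ± 0.25, limma adjusted p = 0.207). Of 25 collagen genes 0 passed and 21 were below 0 (median -0.28, with -0.34 to -0.025 over the alternatives). P4HA1, a collagen prolyl hydroxylase, read 1041, 1072, 946 and 1023 with CEE and 635, 562, 570.2 and 536 with CEE+MPA, without overlap (-0.81 ± 0.18, adjusted p = 0.241). GAS6, a ligand of TAM receptor kinases, read 1219.8, 1209, 1836 and 1499 with CEE and 909.9, 834, 799.8 and 637 with CEE+MPA (-0.83 ± 0.17, adjusted p = 0.165).

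Epithelial markers were split. Of 27 luminal markers 0 passed and the list mean overlapped, with -0.03 to 0.19 on the CEE arrays and -0.0075 to 0.072 on the CEE+MPA arrays. Of 15 basal markers 0 passed and 11 were below 0, with list means of -0.051 to 0.18 and -0.46 to -0.012. TRIM29, a regulator found in basal cells, read 504, 1027, 1274 and 927 with CEE and 483, 393, 207 and 289 with CEE+MPA (-1.39 ± 0.33, limma adjusted p = 0.268), and KRT16, a stress keratin, 615, 946, 596 and 636 with CEE and 480.3, 588, 269 and 178 with CEE+MPA (-0.97 ± 0.36). AQP5, the water channel of secretory cells, read 667, 389, 639 and 799 with CEE and 85.8, 201, 149 and 272 with CEE+MPA, with every CEE+MPA signal the lower (-1.78 ± 0.42, adjusted p = 0.268). Endothelial markers had 0 of 22 past the threshold and 18 below 0 (median -0.15). The summed signal of the 27 luminal markers was 92100 to 104300 with CEE and 95600 to 112700 with CEE+MPA, and that of the 26 contractile genes 45030 to 48080 and 32000 to 40230. What the makeup of the tissue contributed to the 6 probe sets that fell was not tested. With the luminal list mean in the model all 6 passed, and 12 probe sets passed in all. That list mean overlapped between the groups, so it could take away little of a difference between them. Contractile, fibroblast and basal list means were not used as covariates.

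**Figure D5:**
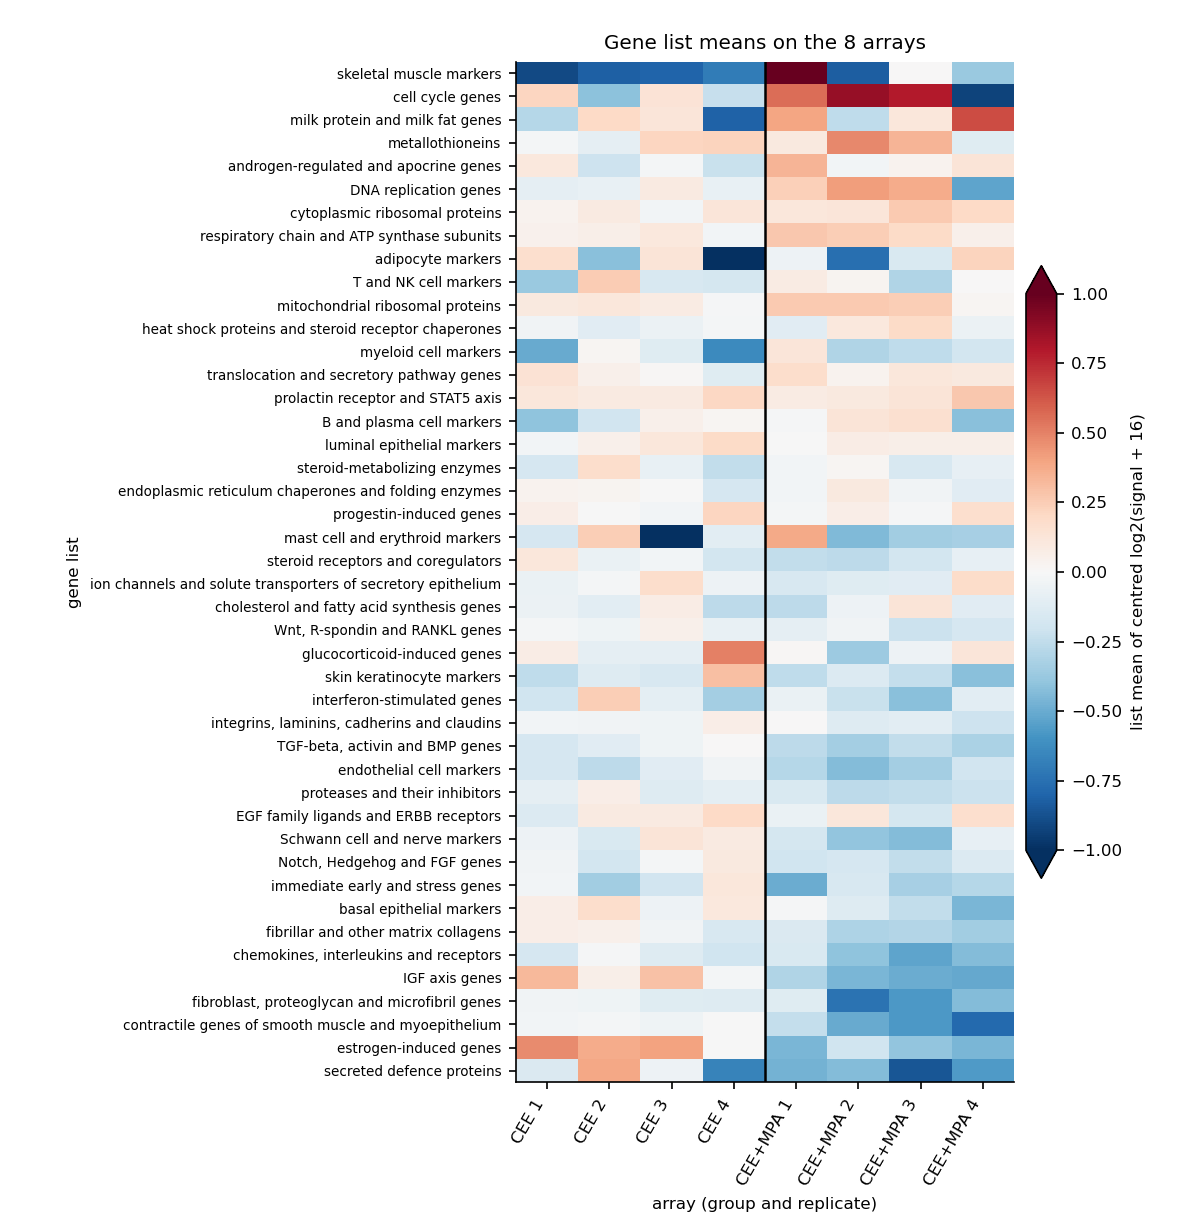
Mean over the tested members of each gene list (vertical) of log2(signal + 16), centred on each gene's mean over the 16 arrays, on each of the 8 arrays (horizontal), with red above and blue below that mean and lists ordered by their median log2 fold change. The bottom rows (secreted defence proteins, estrogen-induced, contractile and fibroblast genes) are bluer on the CEE+MPA side, and CEE+MPA replicate 4 stands apart from the other CEE+MPA arrays in the cell cycle row.

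Proliferation genes were higher on 3 of the 4 CEE+MPA arrays. Of 36 tested cell cycle genes 0 passed, 31 were above 0 and the median was 0.44. The list mean was 0.56, 0.87 and 0.79 on CEE+MPA replicates 1, 2 and 3 and -0.93 on replicate 4, against -0.41 to 0.21 on the CEE arrays. Without CEE+MPA replicate 4 the median was 0.92. It was -0.031 in the low spike-in set, which holds that array, and 1.03 in the high set. MKI67, the Ki-67 antigen of cycling cells, read 177, 84.4, 187 and 125 with CEE and 235, 369, 365 and 63.1 with CEE+MPA (0.60 ± 0.43, limma adjusted p = 0.775). Within the sets MKI67 differed by 0.017 and 1.18. PCNA, the replication clamp, read 1207, 1219, 1113 and 776 with CEE and 1845, 2317, 1866 and 716 with CEE+MPA (0.54 ± 0.31, with -0.075 and 1.15 within the sets). In both genes CEE+MPA replicate 4 was below every CEE array while the other 3 were above. DLGAP5, a spindle protein, had a lower value (-0.53 ± 0.19, adjusted p = 0.514).

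Secreted defence proteins had the lowest list median, -0.47, with 0 of 27 past the threshold and 22 below 0. The median turned to 0.051 in the high set of the division by the largest gap, which holds 1 CEE array. The list mean was -0.67 to 0.38 with CEE, where replicate 4 was within the range of -0.85 to -0.43 with CEE+MPA, and 0.17 to 1.26 in controls. WFDC2, a secreted protease inhibitor, read 2026, 2358, 1595 and 879 with CEE and 636, 687, 613 and 815 with CEE+MPA (-1.22 ± 0.48, limma adjusted p = 0.546). Of its 2 probe sets 1 had this direction. Of 38 chemokine and interleukin genes 0 passed and 29 were below 0 (median -0.29). IL33, an alarmin kept in the nuclei of barrier and stromal cells, read 117, 156, 108 and 219 with CEE and 52.9, 75.7, 65.3 and 65.4 with CEE+MPA, without overlap (-0.998 ± 0.21, adjusted p = 0.181). IL6ST, the shared receptor chain of the IL-6 family, read 122, 125, 145 and 107 with CEE and 77.4, 65.6, 37.7 and 69.4 with CEE+MPA (-0.87 ± 0.24, adjusted p = 0.355). Of 25 myeloid markers 0 passed and 18 were above 0 (median 0.12). SPP1, osteopontin, was spread over 146 to 2029 with CEE and 125 to 4422 with CEE+MPA, both below the control range of 7211 to 12741, and no difference between the hormone groups could be read from it (-0.20 ± 1.06, with 0.72 in the low set and -1.12 in the high set).

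Genes of energy metabolism, protein synthesis and secretion held no gene that passed, and most of their values were small and above 0. Of 53 respiratory chain and ATP synthase subunits 46 were above 0 (median 0.14), of 57 mitochondrial ribosomal proteins 49 (median 0.12), and of 47 secretory pathway genes 36 (median 0.12), with 0 past the threshold in each. ATP5F1C, an ATP synthase subunit, read 4737, 4053, 4862 and 4228 with CEE and 6289, 5423, 5919 and 5800.1 with CEE+MPA (0.39 ± 0.14, limma adjusted p = 0.491), with 1 of its 2 probe sets in this direction. ATF4, the transcription factor of amino acid stress, read 8391, 7592, 8298 and 7781 with CEE and 9889.5, 10677, 10299 and 9899 with CEE+MPA, higher on every array (0.35 ± 0.12, adjusted p = 0.477). Of 35 cytoplasmic ribosomal proteins 30 were above 0 (median 0.15), a value that turned to -0.0063 with quantile normalization.

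On the higher side 0 genes passed, with 282 genes (2.7%) at an unadjusted p under 0.05 and 254 (2.43%) with every CEE+MPA signal above every CEE signal. The smallest p belonged to CLHC1, a gene with a clathrin heavy chain linker domain, which read 113, 113, 144 and 118 with CEE, 389, 302, 225 and 250.4 with CEE+MPA and 154, 99.2, 120.1 and 118 in controls. CEE and control overlapped and every CEE+MPA signal stood above both, by 1.13 ± 0.22 over CEE (limma, adjusted p = 0.134). NARS2, the mitochondrial asparaginyl-tRNA synthetase, read 532, 471, 569 and 565 with CEE and 967, 719, 789 and 955 with CEE+MPA (0.66 ± 0.14, adjusted p = 0.203). LAMP5, a lysosome-associated membrane protein, read 59.4, 51.9, 43.6 and 65.6 with CEE and 93.3, 1736, 292 and 382 with CEE+MPA (2.47 ± 0.56, adjusted p = 0.243). CEE+MPA replicate 1 was its lowest, and without that array LAMP5 passed (3.08, adjusted p = 0.0348). SLCO1A2, an organic anion transporter, read 18.4, 8.21, 44.0 and 18.3 with CEE and 168, 137, 44.5 and 83.7 with CEE+MPA (1.66 ± 0.39, adjusted p = 0.261). KCNK12, a potassium channel subunit read after its values were seen, had 59.6 to 119 with CEE and 291 to 848 with CEE+MPA (2.03 ± 0.51, adjusted p = 0.278).

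Markers of tissues around the gland were uneven between arrays. The summed signal of the 22 tested skeletal muscle markers was 4845 to 5481 with CEE and 5106 to 10490.0 with CEE+MPA, with 0 past the threshold and a median of 0.76, or 0.33 without CEE+MPA replicate 1. MYL1, a fast muscle myosin light chain, read 5.33, 1.58, 12.4 and 10.2 with CEE and 1152, 5.87, 349 and 181 with CEE+MPA. With the muscle list mean as a covariate all 6 probe sets passed, and 13 passed in all. That list mean overlapped between the groups (-0.90 to -0.70 with CEE and -0.82 to 1.14 with CEE+MPA). What muscle contributed to the 6 is not settled by this. Adipocyte markers had list means of -1.04 to 0.17 and -0.75 to 0.22, with 0 of 26 past the threshold, and their median of 0.13 turned to -0.094 without CEE replicate 4.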

How the data were processed

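Total RNA of mammary tissue was extracted with Tri-reagent and a Qiagen RNeasy kit, per the labels' protocols, and labelled with biotin. The deposited values are linear intensity values, 1 per probe set, made by the authors with GCOS and Affymetrix Expression Console, per the submitters' processing notes, which name no versions. Every array has nearly the same 2% trimmed mean, so overall differences in RNA amount are removed. From these values log2(signal + 16) was computed, a scale that understates changes of low signals, and no further normalization was applied. Probe sets above 60.2 in at least 4 of 16 arrays were fitted with limma 3.58.1 in R 4.3.3, with 4 group means over all 16 arrays and 12 residual degrees of freedom, and p-values were adjusted by Benjamini-Hochberg over 28704 probe sets; the script was tested on simulated data. Of all 52865 probe sets 24969 had 1 gene symbol, 361 several and 27535 none in the platform annotation, which can be old, and no gene was named from a probe set with several. Replicate numbers follow accession order and pair nothing. Members, gene lists (44, with 1058 of 1657 genes tested) and tests were chosen with earlier results of these data known. Besides members that passed and the panel of hormone-response genes, the text names, by rule, up to 4 members of a list with the smallest p and the 5 genes with the smallest p in a direction where fewer than 5 passed. The log2 list mean of an array is the mean of its genes, each centred over 16 arrays. The number of arrays limits the precision. The alternatives were other scalings, filters, offsets, covariates and blocks, and each array left out in turn; 28 were run. No promoter sequence was used here.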

Additional observations from a re-analysis of the deposited data

Results flagged for a closer look

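Among 164 sets of 4 arrays checked, 8 had 1 array far from the other 3, with a gap over 0.829 of the whole range; chance gives about 1 in 20. On the log2(signal + 16) scale, CEE replicate 3 was high for CLHC1 at 7.33, and CEE replicate 1 was low for WNT4 at 6.66 and for STAT5A at 9.78. The list mean of DNA replication genes was 0.091 on CEE replicate 3, where the other 3 CEE arrays were below 0. The list mean of integrins, laminins, cadherins and claudins was 0.070 on CEE replicate 4. The list mean of mast cell and erythroid markers was 0.38 on CEE+MPA replicate 1, and only 4 of its genes were tested. On CEE+MPA replicate 4 the list mean of mitochondrial ribosomal proteins was low at 0.016, and that of ion channels and solute transporters of secretory epithelium was high at 0.19.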

How the results depend on the processing

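The count of 6 lower probe sets became 10 with the filter set over the 8 arrays, 11 with only the 8 arrays, 11 with a trended prior, 14 with array weights, 13 with a skeletal muscle covariate, 12 with a luminal covariate and 15 at a threshold of 0.10. Leaving out 1 array gave 5 to 13, with 13 without CEE replicate 4. With arrays divided at the largest gap in spike-in signal, it was 5 in the low set (3 CEE and 2 CEE+MPA arrays) and 0 in the high set, where 1 CEE array stood against 2 CEE+MPA arrays and was assumed to vary like the others, so that 0 says nothing about stability. In the sets redrawn after seeing the data, with 2 arrays of each group, it was 1 in the low set and 0 in the high set. In the settings with 0, limma gave 2034 and 2522 probe sets at an unadjusted p under 0.05. The cause of the other moves was not tested. The count of 0 higher probe sets became 1 with only the 8 arrays (unnamed, log2 fold change 1.33, limma adjusted p = 0.0312), and was 0 to 1 with an array left out (LAMP5, without CEE+MPA replicate 1). All 6 called probe sets kept their direction in each of the alternatives that tested them. Since every CEE+MPA signal lay below every CEE signal in each, leaving out or dividing arrays could not have changed it. IGFBP1 and the TMPRSS3 probe set passed in 25 of 28 alternatives, GREB1 in 25 of 27, BCAS1 and the unnamed probe set in 23 of 27, and the ERICH3 probe set in 9 of 28. The share of lower probe sets at an unadjusted p under 0.05 was 68.3%, 56.7% with quantile normalization and 53.1% with median centring. No paired analysis was possible because no animal was sampled under both treatments.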

Other observations

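Protease genes and markers of nerve sheaths held 0 genes that passed. Of 43 proteases and inhibitors 30 were below 0 (median -0.19), and the list mean was -0.13 to 0.067 on the CEE arrays and -0.26 to -0.15 on the CEE+MPA arrays, without overlap. MMP14, a membrane-bound matrix protease, read 149, 156, 161 and 118 with CEE and 168, 161, 174 and 249.5 with CEE+MPA (0.32 ± 0.15, limma adjusted p = 0.631). Of 12 Schwann cell and nerve markers 4 were lower at an unadjusted p under 0.05 (4.88% of all genes were), and the list median was 0.042 in the low spike-in set and -0.47 in the high one. MBP, a myelin protein, read 167, 118, 178 and 168 with CEE and 75.3, 64.6, 59.4 and 96.6 with CEE+MPA (-0.95 ± 0.24, adjusted p = 0.278).

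Of 27 immediate early and stress genes 19 were below 0 (median -0.23), of 34 interferon-stimulated genes 23 (median -0.13), and of 27 cholesterol and fatty acid synthesis genes 15 (median -0.056), with 0 past the threshold in each. Of 27 heat shock proteins and steroid receptor chaperones 20 were above 0 (median 0.12). HSP90AA1, a chaperone of steroid receptors, read 97.3, 77.7, 94.8 and 84.9 with CEE and 174, 121, 114 and 92.7 with CEE+MPA, which overlapped (0.41 ± 0.21, limma adjusted p = 0.678).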
